A study of Mus musculus with 12 samples.

Results

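The matrix metalloproteinases (MMPs), the ADAMTS proteases and the tissue inhibitors of metalloproteinases (TIMPs) were followed in mouse brain after experimental intracerebral hemorrhage (ICH). Every gene of the deposited table whose symbol is that of an Mmp, Timp, Adamts or Adamts-like (Adamtsl) gene was taken, which gave 51 of 21956 genes: 23 MMPs, 4 TIMPs, 19 ADAMTS and 5 ADAMTSL genes. The choice used symbols alone and no measured value.

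Each of the 12 libraries was 1 mouse, and 3 mice made up each group: Sham-Fabp4fl_fl, Sham-Fabp4CKO, ICH-Fabp4fl_fl and ICH-Fabp4CKO. The p-values therefore measure the spread between these few mice. All 4 groups carried floxed Fabp4, the gene of a fatty acid carrier protein. In the CKO groups floxed mice had been crossed to Tmem119-creERT2, whose tamoxifen-dependent Cre is driven by a microglial gene, and tamoxifen had been given at 150 mg/kg per day for 7 days, with surgery 14 days after the last dose. Whether the fl_fl mice received tamoxifen, and how old the floxed mice were, is not given in the sources used here. ICH was made by injecting collagenase, a bacterial enzyme that is itself a matrix protease, into the striatum, and sham mice were operated on without it. Tissue within 1 to 2 mm of the hematoma was cut in 1 mm slices at 48 h after ICH, with the same sampling in sham mice, and its poly(A) RNA was sequenced in bulk. In such tissue fewer cells of a type and less RNA per cell cannot be told apart, and the deletion is limited to the cells in which the microglial Cre was active.

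MMPs are zinc endopeptidases that are made as inactive zymogens and cleave collagens, gelatin, laminin and other matrix proteins. TIMPs bind their active site, so the balance of both families sets how much matrix is cleaved. The ADAMTS enzymes are related secreted proteases that cut the large aggregating proteoglycans of brain matrix, process procollagens or, for ADAMTS13, trim von Willebrand factor, and the ADAMTS-like proteins share their ancillary domains without the protease. In the brain the gelatinases and stromelysins are known for breaking down the vascular basement membrane after a bleed.

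Total estimated counts per library ranged from 15650813 to 22406216, and the 51 genes together took 0.113% to 0.143% of them in every library but ICH-Fabp4CKO mouse 1 (0.29%) and mouse 3 (0.397%). The targeted gene Fabp4 had 2, 1 and 2 counts in the Sham-Fabp4fl_fl mice, 0 in all 3 Sham-Fabp4CKO mice, 46, 63 and 24 in the ICH-Fabp4fl_fl mice and 5, 3 and 10 in the ICH-Fabp4CKO mice, so it was lower in the CKO libraries after ICH. Several libraries stood apart. ICH-Fabp4CKO mouse 1 had 1 count over the Y-linked genes Ddx3y, Uty, Kdm5d and Eif2s3y, against 1302 to 2251 in the other libraries. ICH-Fabp4fl_fl mouse 1 had 16.3% mitochondrial counts against 7.9% to 11.9% in the others. The 5 choroid plexus markers summed to 846, 1627 and 3242 CPM (counts scaled to library size with TMM factors) in the Sham-Fabp4fl_fl mice, 43 to 50.2 CPM in the Sham-Fabp4CKO mice and 15 to 26.5 CPM after ICH.

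With Fabp4 intact, the tested collagenases (Mmp8 and Mmp13), the tested stromelysins (Mmp3 and Mmp11), both gelatinases and Timp1 were higher after ICH than in sham tissue, while Timp2, Mmp24, Adamts3, Adamts15 and Adamts17 were lower. Of the 51 genes 42 had enough counts to be tested in Fabp4fl_fl, of which 23 were higher and 5 lower in ICH. The threshold was 0.05 on the p of the quasi-likelihood test in edgeR after Benjamini and Hochberg's correction over all genes tested, written edgeR adjusted p from here. Among all 14719 genes tested 26.2% were higher and 19.3% lower. The median log2 fold change was 1.37 over the 42 genes and 0.02 over all genes tested. In Fabp4CKO mice 41 were tested, 20 were higher and 2 lower, with 24.5% and 11.1% in the background, and the medians were 0.61 and 0.01. Setting the genes at 0 counts in sham to their lower bound could not move these medians, since each bound lay above the median. Genes near 0 counts in sham passed the filter on low counts through the ICH mice alone, so the counts and medians over the genes tested are a description. Among the MMPs 12 of the 16 tested were higher and 1 lower in Fabp4fl_fl, and 11 of 16 higher and 1 lower in Fabp4CKO. The calls in Fabp4CKO changed with the mice kept. Leaving out Sham-Fabp4CKO mouse 1, 2 or 3 left 7, 6 or 3 genes higher. Leaving out ICH-Fabp4CKO mouse 1 left 10, and leaving out ICH-Fabp4CKO mouse 2 gave 25. With fewer mice the test has less power, so a lost call alone does not show that the fold change rested on the mouse left out.

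The genes differed in which mice their calls needed. In Fabp4CKO, Timp1, Mmp19 and Adamts9 were called with any mouse left out. Mmp2, Mmp12 and Mmp13 lost their call without any 1 of the 3 Sham-Fabp4CKO mice, as did Mmp9, Mmp14, Adamts12 and Adamtsl4, which lost it without ICH-Fabp4CKO mouse 1 too. Mmp11, Mmp23, Timp4, Adamts7, Adamts8 and Adamts10 also lost it without ICH-Fabp4CKO mouse 3. Mmp3 lost it without Sham-Fabp4CKO mouse 2 or 3 or ICH-Fabp4CKO mouse 1, Mmp8 without Sham-Fabp4CKO mouse 2 or 3, Mmp15 and Mmp25 without Sham-Fabp4CKO mouse 1 or 3, and Adamts1 and Adamtsl3 without Sham-Fabp4CKO mouse 3. In Fabp4fl_fl the calls lost were those of Mmp9 without Sham-Fabp4fl_fl mouse 2 or 3, Mmp28 without Sham-Fabp4fl_fl mouse 2 or ICH-Fabp4fl_fl mouse 2, Adamts10 and Timp2 without Sham-Fabp4fl_fl mouse 2, and Mmp24 and Adamts3, each in 4 of the 6 fits.

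**Figure D1:**
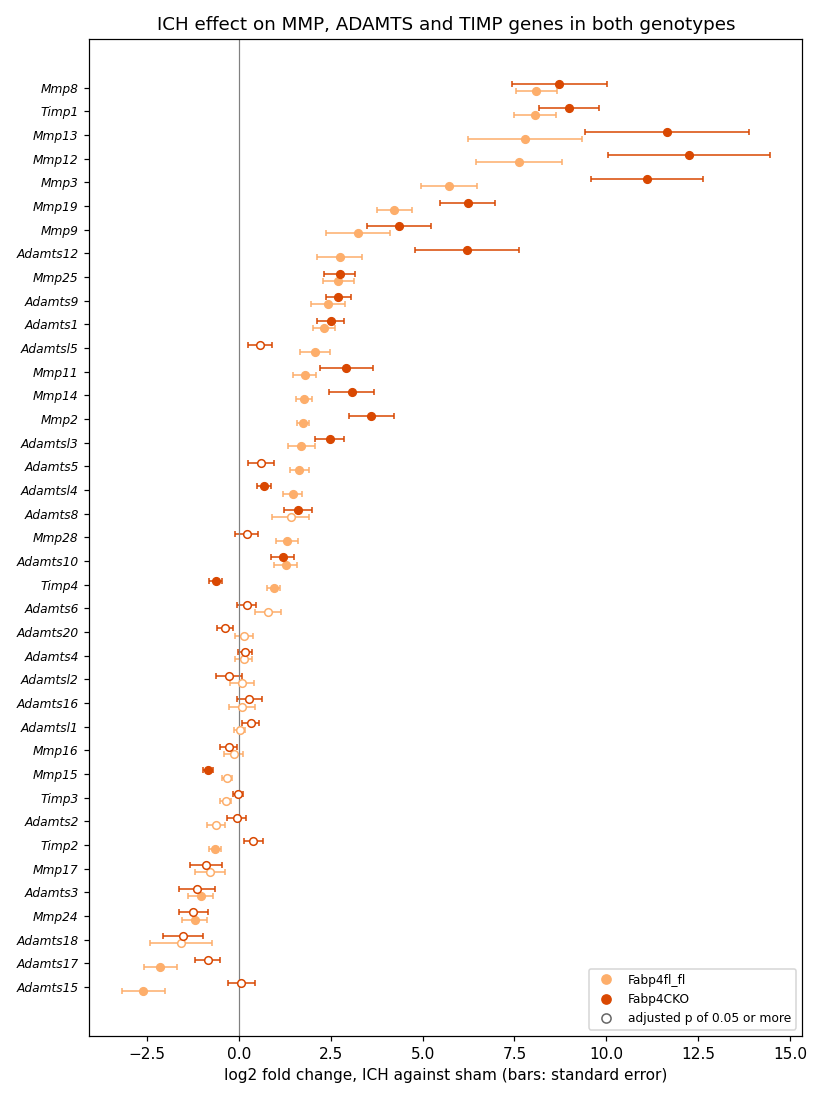
Log2 fold change of ICH against sham (x axis, bars are standard errors) for each gene tested in both genotypes, ordered by its value in Fabp4fl_fl. Filled points passed an adjusted p of 0.05. Mmp8, Timp1, Mmp13, Mmp12 and Mmp3 lie farthest to the right, and the fitted positions of Mmp13 in Fabp4fl_fl and Mmp3 in Fabp4CKO, which had 0 counts in sham, depend on the prior count of the fit.

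Several of the largest changes were those of MMP genes that are neighbours on chromosome 9. In RefSeq's GRCm38.p6 set, 10 of the MMP genes start in a row there: Mmp13, Mmp12, Mmp1b, Mmp3, Mmp1a, Mmp10, Mmp8, Mmp27, Mmp20 and Mmp7. Of the 51 genes 36 had an entry in its table of start sites. The 250 bases before each start were searched for TGANTCA (N is any base), a pattern that reads the same on both strands. It includes TGAGTCA and TGACTCA, the core site that AP-1 (Fos and Jun dimers) is known to bind, and is wider than that site. It was found in 8 of these 10 genes and in 0 of the other 26 members with an entry, while 6.75% of all 32851 such windows and 7.82% of all 27025 genes held it. The match in Mmp20 read TGAATCA, and those in the other genes of the row read TGAGTCA or TGACTCA. A match describes letters only and does not show that a factor was bound. The 120 bases before the start are shown for the 4 genes of the row with the strongest rise or the widest spread among ICH mice that hold the match, with the match in capitals, followed by Mmp8 and Mmp27, which rose in Fabp4fl_fl and hold none. All lie on the plus strand of GRCm38.p6. Mmp12 has 2 annotated starts, and the match precedes the second one.

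Mmp13 (chr9:7272394-7272513): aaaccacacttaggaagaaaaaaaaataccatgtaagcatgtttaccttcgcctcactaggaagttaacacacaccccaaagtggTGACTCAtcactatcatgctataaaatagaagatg
Mmp12 (chr9:7347254-7347373): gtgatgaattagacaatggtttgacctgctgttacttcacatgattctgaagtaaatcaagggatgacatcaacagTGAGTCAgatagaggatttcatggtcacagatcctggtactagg
Mmp3 (chr9:7445702-7445821): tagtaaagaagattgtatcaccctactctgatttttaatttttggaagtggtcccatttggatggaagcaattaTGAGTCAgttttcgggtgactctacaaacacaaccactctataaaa
Mmp10 (chr9:7502222-7502341): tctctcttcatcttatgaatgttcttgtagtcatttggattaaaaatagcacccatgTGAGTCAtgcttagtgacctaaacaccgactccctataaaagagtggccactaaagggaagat
Mmp8 (chr9:7558309-7558428): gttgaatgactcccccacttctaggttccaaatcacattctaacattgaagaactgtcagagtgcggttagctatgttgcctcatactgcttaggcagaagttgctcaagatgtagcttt
Mmp27 (chr9:7571276-7571395): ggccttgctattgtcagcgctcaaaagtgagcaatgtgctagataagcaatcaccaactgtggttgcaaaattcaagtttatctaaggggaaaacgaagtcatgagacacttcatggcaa

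In these windows the match began 35 bases before the start in Mmp13, 44 in Mmp12, 46 in Mmp3 and 63 in Mmp10. Mmp1b, Mmp1a, Mmp20 and Mmp7 also hold it, at 93, 73, 95 and 63 bases before the start, and those 4 genes had few or no counts: Mmp7 and Mmp20 had 0 counts in all 12 libraries, Mmp1a had 1 and 4 counts in ICH-Fabp4CKO mice 1 and 3, and Mmp1b had 2 in mouse 3.

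Mmp12 encodes macrophage elastase, which degrades elastin and basement membrane. Its counts were 12, 1 and 0 in Sham-Fabp4fl_fl, 6, 5 and 4 in Sham-Fabp4CKO, 1489, 308 and 305 in ICH-Fabp4fl_fl and 18272, 226 and 40620 in ICH-Fabp4CKO. All ICH mice were above all sham mice, and within ICH-Fabp4CKO mouse 2 was below, and mice 1 and 3 far above, all 3 ICH-Fabp4fl_fl mice. The log2 fold change was 7.62 (SE 1.18, edgeR adjusted p = 0.00251) in Fabp4fl_fl and 12.25 (SE 2.2, edgeR adjusted p = 0.0121) in Fabp4CKO. In Fabp4fl_fl it was 10.32 without Sham-Fabp4fl_fl mouse 1, 7.0 without Sham-Fabp4fl_fl mouse 3 and 6.26 without ICH-Fabp4fl_fl mouse 1, and in Fabp4CKO 11.29 without ICH-Fabp4CKO mouse 3. Sham counts so near 0 leave the sizes of such changes, and their difference between the genotypes, uncertain, here and for Mmp8 and Mmp3 below.

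The 2 tested collagenases, which cut fibrillar collagen, were nearly silent in sham tissue. Mmp8, the neutrophil collagenase, had 0 to 2 counts in every sham mouse, 397, 369 and 243 in ICH-Fabp4fl_fl and 520, 90 and 1195 in ICH-Fabp4CKO. It rose by 8.09 on the log2 scale (SE 0.56, edgeR adjusted p = 0.000305) in Fabp4fl_fl and by 8.72 (SE 1.29, edgeR adjusted p = 0.00791) in Fabp4CKO, or 7.84 without ICH-Fabp4CKO mouse 3. Mmp13 had 0 counts in 5 of the 6 sham mice and 1 in Sham-Fabp4CKO mouse 3, against 48, 12 and 13 in ICH-Fabp4fl_fl and 1473, 31 and 2054 in ICH-Fabp4CKO. Against a floor of 3 counts per library it was at least 9.79-fold higher with ICH in Fabp4fl_fl, or at least 4.55-fold without ICH-Fabp4fl_fl mouse 1. In Fabp4CKO its ratio was 4406 with an exact 95% counting interval of 790 to 174068, which rests on the 1 count in Sham-Fabp4CKO mouse 3. Both Mmp13 contrasts passed the test (edgeR adjusted p = 0.0126 and 0.0141), the second not when Sham-Fabp4CKO mouse 1, 2 or 3 was left out (edgeR adjusted p of up to 0.09).

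Of the stromelysins, which cleave laminin, fibronectin and proteoglycans and can activate other pro-MMPs, Mmp3 had 6, 0 and 1 counts in Sham-Fabp4fl_fl and 0 in all Sham-Fabp4CKO mice. After ICH it had 134, 121 and 67 counts in Fabp4fl_fl and 288, 65 and 359 in Fabp4CKO. Its log2 fold change in Fabp4fl_fl was 5.72 (SE 0.77, edgeR adjusted p = 0.00151), or 7.57 without Sham-Fabp4fl_fl mouse 1, and in Fabp4CKO it was at least 101-fold higher (edgeR adjusted p = 0.013). Mmp10 was too sparse to be tested with all mice kept: it had 6, 1 and 1 counts in ICH-Fabp4fl_fl but 602, 4 and 471 in ICH-Fabp4CKO, with 1 count over all 6 sham mice. In Fabp4CKO that is at least 157-fold above the sham floor, resting on mice 1 and 3, and at least 94.4-fold without mouse 1. Mmp27, whose substrates are little studied, was at 0 in every sham mouse, at 55, 34 and 17 counts in ICH-Fabp4fl_fl and at 97, 2 and 256 in ICH-Fabp4CKO. It was at least 14.1-fold higher in Fabp4fl_fl (edgeR adjusted p = 0.00518) and at least 49.3-fold higher in Fabp4CKO, where it was not tested and where the bound was 23-fold without ICH-Fabp4CKO mouse 3.

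**Figure D2:**
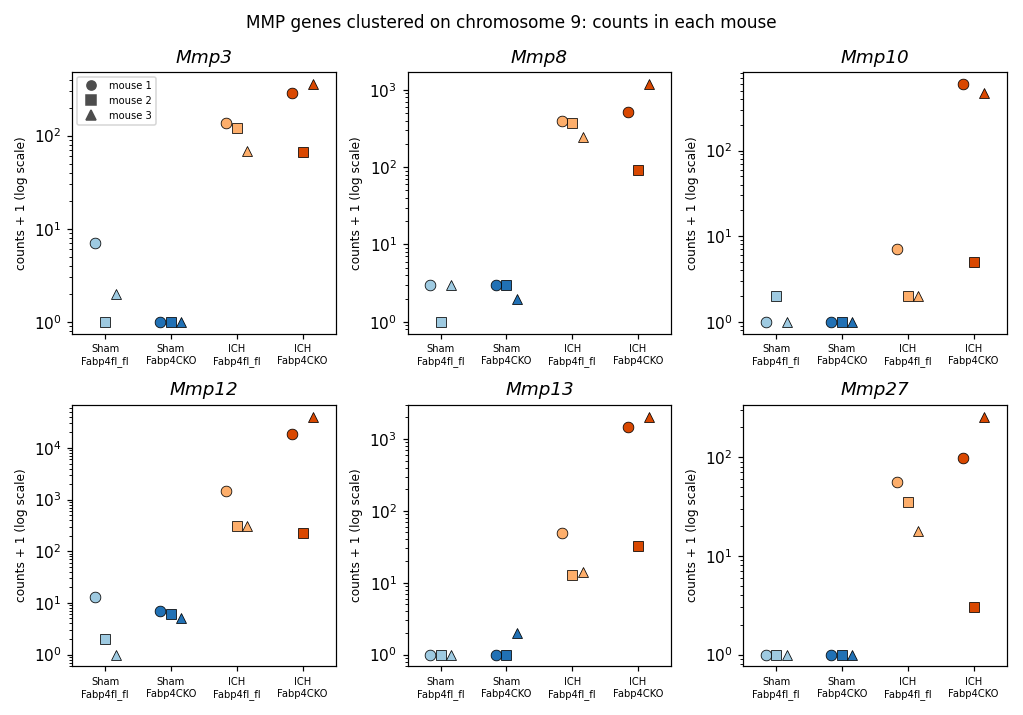
Estimated counts plus 1 in each mouse (y axis, log scale) for the 6 MMP genes of the chromosome 9 row that had reads in every ICH mouse, by group, with a symbol for each mouse. Sham mice lie between 0 and 12 counts for each gene, and in ICH-Fabp4CKO mouse 2 (square) is below mice 1 and 3 for all 6 genes.

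The gelatinases cleave type IV collagen of the basement membrane. Mmp2 had 4.45, 4.2 and 4.73 CPM in Sham-Fabp4fl_fl, 3.03, 2.36 and 2.76 in Sham-Fabp4CKO, 15.2, 16 and 13.4 in ICH-Fabp4fl_fl and 31.7, 11.1 and 56.3 in ICH-Fabp4CKO. ICH and sham mice did not overlap in either genotype, and the rise was 1.75 (SE 0.17, edgeR adjusted p = 0.000522) and 3.61 (SE 0.60, edgeR adjusted p = 0.00999) on the log2 scale, or 2.97 without ICH-Fabp4CKO mouse 3. Mmp9, abundant in neutrophil granules, had 0.757 to 1.48 CPM in the sham mice of both genotypes. After ICH it had 24.5, 3.51 and 3.40 CPM in Fabp4fl_fl and 37.1, 3.63 and 24.1 in Fabp4CKO, so that 1 mouse of the first group and 2 of the second were several times above the rest. Its log2 fold change was 3.25 (SE 0.87, edgeR adjusted p = 0.0203) in Fabp4fl_fl and 4.36 (SE 0.87, edgeR adjusted p = 0.0157) in Fabp4CKO. Without ICH-Fabp4fl_fl mouse 1 the first was 1.63, and without ICH-Fabp4CKO mouse 1 the second was 3.72 and no longer called (edgeR adjusted p = 0.0522).

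The membrane-type MMPs moved in both directions. Mmp14, which sits on the cell surface and activates the zymogen of gelatinase A, had 20.4, 20.4 and 17.2 CPM in Sham-Fabp4fl_fl, 16.2, 15.4 and 19.6 in Sham-Fabp4CKO, 78.8, 69.5 and 46.8 in ICH-Fabp4fl_fl and 147, 40.5 and 237 in ICH-Fabp4CKO. It rose by 1.77 (SE 0.22, edgeR adjusted p = 0.00104) and by 3.07 (SE 0.61, edgeR adjusted p = 0.016), the latter 2.45 without ICH-Fabp4CKO mouse 3. Mmp25, a membrane-anchored enzyme of leukocytes, rose by 2.71 and 2.74 (edgeR adjusted p = 0.00264 and 0.00851) from 0.234 to 0.773 CPM over the sham mice. The membrane types most abundant in sham tissue went the other way or did not pass: Mmp24, known from neurons, had 37.9 to 43.4 CPM in Sham-Fabp4fl_fl and 9 to 26.3 in ICH-Fabp4fl_fl and fell by 1.20 (SE 0.34, edgeR adjusted p = 0.0252), with a log2 fold change of -1.24 in Fabp4CKO (edgeR adjusted p = 0.0506). Mmp15 fell in Fabp4CKO, from 39 to 47 CPM down to 21.8 to 26.9 CPM (log2 fold change -0.83, SE 0.14, edgeR adjusted p = 0.0105), while in Fabp4fl_fl its value was -0.32 (edgeR adjusted p = 0.0737). Mmp17 and Mmp16 passed in neither genotype, with log2 fold changes of -0.79 and -0.89 for Mmp17 and -0.14 and -0.27 for Mmp16. The 6 markers of striatal neurons summed to 2159 to 3936 CPM over the sham mice and 875, 1246 and 2872 CPM in ICH-Fabp4fl_fl mice 1 to 3, the order in which Mmp24 (9, 16.2 and 26.3 CPM) and Mmp17 (31.9, 70.9 and 104 CPM) also stood, and their part in these values was not tested.

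Among the remaining MMPs, Mmp19, which cleaves basement membrane components, had 0.136 to 1.15 CPM over the sham mice, 17, 13.4 and 8.77 in ICH-Fabp4fl_fl and 21.7, 5.17 and 23 in ICH-Fabp4CKO. It rose by 4.23 (SE 0.48, edgeR adjusted p = 0.000775) and by 6.23 (SE 0.75, edgeR adjusted p = 0.00589), and the call held with each mouse left out in turn. Mmp11 rose by 1.79 and 2.93 (edgeR adjusted p = 0.00404 and 0.0272). Mmp28, a secreted MMP known from epithelia and neurons, rose in Fabp4fl_fl from 2.6 to 4.26 CPM up to 6.86 to 12 CPM (log2 fold change 1.32, SE 0.30, edgeR adjusted p = 0.012), while in Fabp4CKO its value was 0.22 (edgeR adjusted p = 0.575). Mmp23 was tested in Fabp4CKO alone, where its log2 fold change was 1.78 (edgeR adjusted p = 0.049) and 1.09 without ICH-Fabp4CKO mouse 3 (edgeR adjusted p = 0.137). Mmp21 had 2 counts in Sham-Fabp4CKO mouse 3 and 0 in the other libraries, where 0 counts in a library allow up to 3.

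The 3 ICH-Fabp4CKO mice were unlike each other in these genes. Of the 42 tested after ICH, 15 were more than 2-fold higher in both mouse 1 and mouse 3 than in mouse 2, 10 of them MMPs, and 3 (Adamts3, Mmp17 and Mmp24) were more than 2-fold higher in mouse 2 than in either. The median ratio of the highest to the lowest mouse was 2.32 over the 42 genes in ICH-Fabp4CKO and 1.81 in ICH-Fabp4fl_fl, against 1.6 and 1.45 over all genes tested. Mmp12 alone took 67.9%, 4.06% and 76.5% of all MMP counts in ICH-Fabp4CKO mice 1, 2 and 3, and 26.3%, 6.01% and 5.56% in the ICH-Fabp4fl_fl mice. All MMPs summed to 1755, 297 and 2947 CPM in ICH-Fabp4CKO, 373, 310 and 291 in ICH-Fabp4fl_fl and 224 to 303 in the sham mice, so mouse 2 lay within the range of the sham mice. Sums of cell type markers also differed among these mice. In ICH-Fabp4CKO mice 1, 2 and 3 the 7 fibroblast and meningeal markers summed to 474, 44.2 and 874 CPM, the 9 neutrophil markers to 197, 69.7 and 304, the 7 monocyte and macrophage markers to 685, 122 and 768 and the 7 microglial markers to 2699, 1358 and 4031. In the ICH-Fabp4fl_fl mice the same sums ran from 61.4 to 203, from 37.3 to 64.5, from 146 to 731 and from 1183 to 1289 CPM, and no marker list had a gene at 0 in all ICH mice of a group. The striatal neuron markers (1350, 2507 and 1044 CPM) and the astrocyte markers (2018, 3598 and 2490) were highest in mouse 2, and the oligodendrocyte markers (10535, 10883 and 6911) were lowest in mouse 3. The part of these cells in the MMP values was not tested.

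The inhibitors split. Timp1, the inducible TIMP of injured tissue, had 0.718, 0.221 and 0.788 CPM in Sham-Fabp4fl_fl and 0, 0.227 and 0.0468 in Sham-Fabp4CKO, against 186, 200 and 77.1 in ICH-Fabp4fl_fl and 76.7, 25.4 and 48.2 in ICH-Fabp4CKO. Every ICH mouse was far above every sham mouse. The rise was 8.05 on the log2 scale (SE 0.57, edgeR adjusted p = 0.000305) in Fabp4fl_fl and 8.99 (SE 0.81, edgeR adjusted p = 0.00478) in Fabp4CKO, or 10.71 without Sham-Fabp4CKO mouse 2, and both calls held with each mouse left out. Sham levels so near 0 leave the sizes of these rises, and their difference between the genotypes, uncertain.

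Timp4, a TIMP known for narrow expression that includes brain, had 48.3, 40.1 and 32 CPM in Sham-Fabp4fl_fl, 37.2, 33.8 and 47.4 in Sham-Fabp4CKO, 80.2, 78.7 and 71.3 in ICH-Fabp4fl_fl and 26.9, 27.3 and 21.6 in ICH-Fabp4CKO. The ICH mice were all above sham in Fabp4fl_fl and all below it in Fabp4CKO. Timp4 rose by 0.95 (SE 0.18, edgeR adjusted p = 0.00547) in the first and fell by 0.63 (SE 0.18, edgeR adjusted p = 0.0396) in the second. The rise was called with each mouse left out, and the fall in 1 of 6 such fits, that without ICH-Fabp4CKO mouse 2.

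Timp2, the abundant TIMP that also takes part in activating gelatinase A, had 459, 493 and 559 CPM in Sham-Fabp4fl_fl, 548, 532 and 596 in Sham-Fabp4CKO, 280, 356 and 318 in ICH-Fabp4fl_fl and 649, 545 and 999 in ICH-Fabp4CKO. It fell by 0.65 in Fabp4fl_fl (SE 0.17, edgeR adjusted p = 0.0193), a call lost without Sham-Fabp4fl_fl mouse 2 (edgeR adjusted p = 0.0567), and its log2 fold change in Fabp4CKO was 0.40 (SE 0.25, edgeR adjusted p = 0.218). Timp3, which binds to matrix and inhibits ADAMTS enzymes as well, had 207, 194 and 172 CPM in Sham-Fabp4fl_fl, 161, 151 and 167 in Sham-Fabp4CKO, 138, 142 and 164 in ICH-Fabp4fl_fl and 134, 174 and 156 in ICH-Fabp4CKO, with no call (log2 fold changes -0.35 and -0.03, edgeR adjusted p = 0.098 and 0.867).

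**Figure D3:**
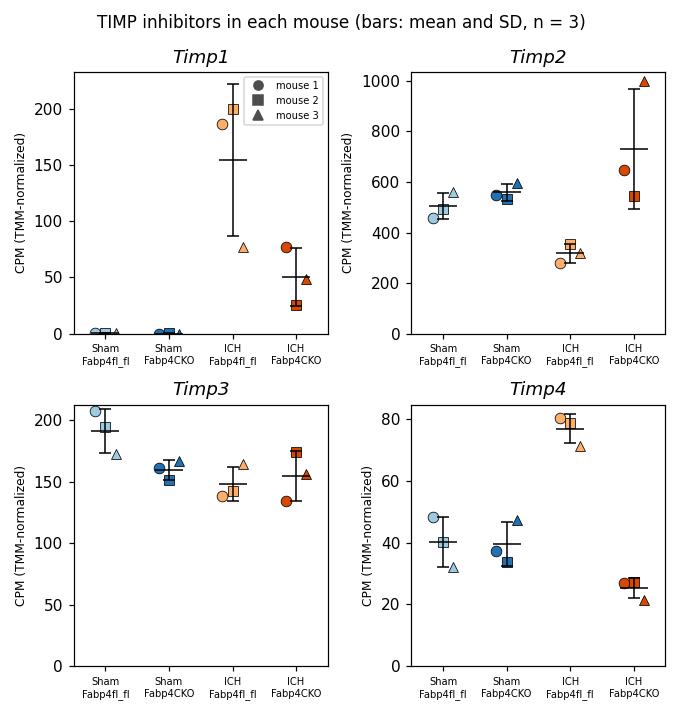
TMM-normalized CPM of Timp1, Timp2, Timp3 and Timp4 in each mouse (points), with group mean and SD (n = 3). Timp4 is above sham in ICH-Fabp4fl_fl (76.7 ± 4.75 CPM) and below it in ICH-Fabp4CKO (25.3 ± 3.19 CPM).

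The make-up of the TIMP counts shifted with these changes. Timp1 took at most 0.103% of them in any sham mouse, 27.2%, 25.7% and 12.2% in the ICH-Fabp4fl_fl mice and 8.65%, 3.3% and 3.93% in the ICH-Fabp4CKO mice, which lay below all 3 ICH-Fabp4fl_fl mice. Timp2 took 64.2% to 74.2% in sham, 40.9% to 50.5% in ICH-Fabp4fl_fl and 70.7% to 81.6% in ICH-Fabp4CKO. Merged exons span all annotated transcripts of a gene, so levels per kilobase of them compare genes only roughly. On that scale the mean of Timp1 in ICH-Fabp4fl_fl was 174 CPM per kb, against 81.7 for Timp2, 18.2 for Timp3 and 13 for Timp4. In CPM Timp2 (318) was above Timp1 (154) in that group, so the order rests on the lengths (888 bases for Timp1, 3896 for Timp2). In ICH-Fabp4CKO the order per kilobase was Timp2 (188), Timp1 (56.4), Timp3 (19) and Timp4 (4.29).

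**Figure D4:**
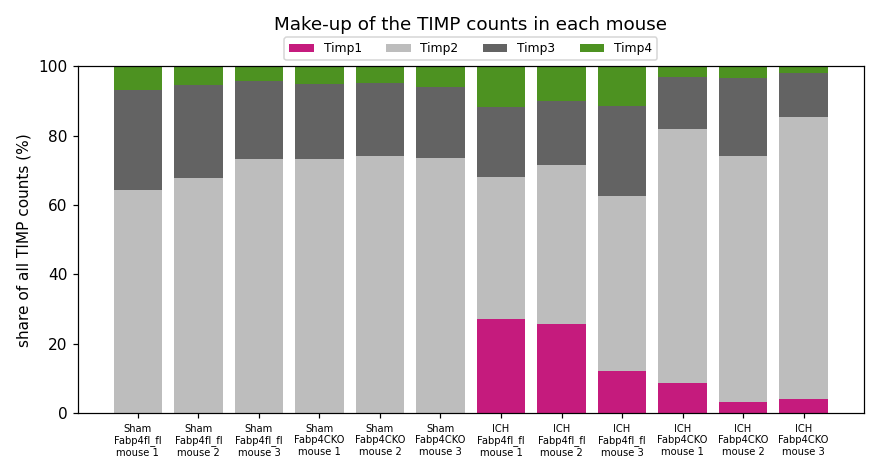
Share of the summed TIMP counts (y axis, percent) taken by each TIMP gene in each of the 12 mice. Timp1 takes 12.2% to 27.2% in ICH-Fabp4fl_fl and 3.3% to 8.65% in ICH-Fabp4CKO.

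Among the ADAMTS genes, those that cut the lectican proteoglycans did not act as a block. Adamts1, a broadly induced aggrecan and versican protease, had 14, 15.2 and 13 CPM in Sham-Fabp4fl_fl, 12.2, 12.4 and 10.9 in Sham-Fabp4CKO, 102, 61.6 and 43.8 in ICH-Fabp4fl_fl and 90.7, 33.9 and 74.5 in ICH-Fabp4CKO. It rose without overlap in both genotypes, by 2.32 (SE 0.31, edgeR adjusted p = 0.00144) and 2.50 (SE 0.36, edgeR adjusted p = 0.0077). Adamts9 rose alike, by 2.42 and 2.71 (edgeR adjusted p = 0.00597 and 0.00611), a call that held with each mouse left out.

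Adamts4, the main aggrecanase of oligodendrocyte lineage cells, had 50.3, 59 and 37.2 CPM in Sham-Fabp4fl_fl, 54.9, 49.5 and 49.1 in Sham-Fabp4CKO, 50.9, 67.7 and 41.6 in ICH-Fabp4fl_fl and 72.4, 48.4 and 48.5 in ICH-Fabp4CKO. The groups overlapped, and the log2 fold changes were 0.14 (SE 0.23, edgeR adjusted p = 0.633) and 0.16 (SE 0.19, edgeR adjusted p = 0.509). Adamts5, the other classical aggrecanase, had 2.58, 2.93 and 3.89 CPM in Sham-Fabp4fl_fl, 2.88, 2.99 and 4.31 in Sham-Fabp4CKO, 9.07, 12.2 and 8.02 in ICH-Fabp4fl_fl and 7.04, 3.15 and 5.27 in ICH-Fabp4CKO. It rose in Fabp4fl_fl, by 1.65 (SE 0.26, edgeR adjusted p = 0.00272), and its value in Fabp4CKO was 0.61 (SE 0.35, edgeR adjusted p = 0.188). Adamts8 was called in Fabp4CKO alone (1.61, edgeR adjusted p = 0.0275) though its value in Fabp4fl_fl was 1.41 (edgeR adjusted p = 0.0525).

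Adamts15, another lectican protease, was the ADAMTS gene that fell most in Fabp4fl_fl. It had 17.7, 12.9 and 4.94 CPM in Sham-Fabp4fl_fl and 0.985, 1.57 and 3.19 in ICH-Fabp4fl_fl, a log2 fold change of -2.60 (SE 0.58, edgeR adjusted p = 0.0105), or -3.18 without ICH-Fabp4fl_fl mouse 3. In Fabp4CKO it had 5.96, 4.35 and 6.56 CPM in sham and 5.74, 3.31 and 8.55 after ICH, a log2 fold change of 0.07 (edgeR adjusted p = 0.876). Adamts17 fell in Fabp4fl_fl as well, from 2.94 to 3.83 CPM down to 0.423 to 1.28 CPM (log2 fold change -2.13, edgeR adjusted p = 0.00914), or by 2.78 without ICH-Fabp4fl_fl mouse 3, and its value in Fabp4CKO was -0.85 (edgeR adjusted p = 0.0836). The Sham-Fabp4fl_fl mice that these falls start from are those with the high choroid plexus sums given above. Over mice 1 to 3 those sums rose (846, 1627 and 3242 CPM), while Adamts15 and Adamts17 (3.83, 3.26 and 2.94 CPM) went down. The 7 fibroblast and meningeal markers summed to 44.8, 31 and 21.8 CPM in these mice and 16.1 to 17.8 CPM in Sham-Fabp4CKO. The part of either tissue was not tested.

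Adamts12, which cleaves cartilage matrix proteins, had 1 to 7 counts in each sham mouse, 42, 39 and 16 in ICH-Fabp4fl_fl and 187, 13 and 466 in ICH-Fabp4CKO. It rose by 2.74 (SE 0.60, edgeR adjusted p = 0.00981) and by 6.20 (SE 1.41, edgeR adjusted p = 0.0226), the latter 5.17 without ICH-Fabp4CKO mouse 3. Of the procollagen processing enzymes, Adamts14 rose in Fabp4fl_fl (2.61, edgeR adjusted p = 0.00877; not tested in Fabp4CKO), Adamts3 fell there (-1.03, edgeR adjusted p = 0.0407, lost in 4 of the 6 fits with a mouse left out) and Adamts2 did not pass (-0.62 and -0.06). Adamts10, a partner of fibrillin fibers, rose by 1.28 and 1.19 (edgeR adjusted p = 0.0139 and 0.0322). Adamts7 was tested in Fabp4CKO alone and rose there by 2.60 (edgeR adjusted p = 0.0356). Adamts6, Adamts16, Adamts18 and Adamts20 passed in neither genotype, Adamts19 was tested in Fabp4fl_fl alone and did not pass, and Adamts13 had 0 to 6 counts in every library and was not tested.

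Of the ADAMTS-like genes, several of which bind matrix microfibrils, Adamtsl3 rose by 1.70 and 2.47 (edgeR adjusted p = 0.00914 and 0.00942) and Adamtsl4 by 1.47 and 0.69 (edgeR adjusted p = 0.00441 and 0.0369). Adamtsl5 rose in Fabp4fl_fl by 2.07 (edgeR adjusted p = 0.00611) and had a value of 0.57 in Fabp4CKO (edgeR adjusted p = 0.18). Adamtsl1 and Adamtsl2 passed in neither.

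The comparison of the genotypes after ICH sets ICH-Fabp4CKO beside ICH-Fabp4fl_fl. The CKO mice also carried Tmem119-creERT2 and had received tamoxifen, which is not stated for the fl_fl mice. ICH-Fabp4CKO mouse 1 also had 1 count over the Y-linked genes, against 1612 to 1793 in the ICH-Fabp4fl_fl mice. The loss of Fabp4 therefore cannot be told apart from these differences. No gene of the 42 tested was higher or lower in ICH-Fabp4CKO than in ICH-Fabp4fl_fl at an adjusted p under 0.05 in edgeR, as for 0% of all 14600 genes tested in either direction. At an unadjusted p under 0.05, 5 were higher and 6 lower, with 6.36% and 5.82% of all genes in the background. The mice of both groups did not overlap for 2 higher and 8 lower genes, against 10.3% and 9.51% of all genes. DESeq2 called 6 of the genes, Timp2 and Mmp13 higher and Timp4, Timp1, Adamtsl4 and Mmp28 lower, and a fit on all 12 libraries called 3 of these, Timp2 higher and Timp4 and Adamtsl4 lower.

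Timp4 had the smallest p of the set. Its mean was 25.3 ± 3.19 CPM (SD, n = 3) in ICH-Fabp4CKO and 76.7 ± 4.75 CPM (SD, n = 3) in ICH-Fabp4fl_fl. The log2 difference was -1.61 (SE 0.16, unadjusted p = 3.51e-05, edgeR adjusted p = 0.119), with a DESeq2 adjusted p of 3.55e-16 and, from the edgeR fit on all 12 libraries, an adjusted p of 0.00632. It lay between -1.70 and -1.50 with each mouse left out. Timp2 had 280 to 356 CPM in ICH-Fabp4fl_fl and 545 to 999 in ICH-Fabp4CKO, a log2 difference of 1.19 (SE 0.28, unadjusted p = 0.00427, edgeR adjusted p = 0.295). Timp1 had a log2 difference of -1.63 (SE 0.51, unadjusted p = 0.0164, edgeR adjusted p = 0.341), and its groups were separated only by the gap between 76.7 CPM in ICH-Fabp4CKO mouse 1 and 77.1 CPM in ICH-Fabp4fl_fl mouse 3. For Timp3 the log2 difference was 0.06 (SE 0.18, edgeR adjusted p = 0.92).

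Outside the TIMPs the smallest p was that of Adamtsl4, which is no protease and had a log2 difference of -1.03 (SE 0.24, unadjusted p = 0.00442) with 23.4, 20.6 and 15.5 CPM in ICH-Fabp4CKO against 40.4, 49.8 and 31.1 in ICH-Fabp4fl_fl, and edgeR gave an adjusted p of 0.295. Mmp28 had 3, 4.69 and 3.83 CPM against 7.62, 12 and 6.86, a log2 difference of -1.20 (SE 0.31, unadjusted p = 0.00716, edgeR adjusted p = 0.313). Mmp13 had the largest difference, 5.54 (SE 1.51, unadjusted p = 0.00913, edgeR adjusted p = 0.318), with overlapping mice, since mouse 2 of ICH-Fabp4CKO had 1.65 CPM and mouse 1 of ICH-Fabp4fl_fl 3.15. Mmp12 was similar, at 4.69 (SE 1.70, unadjusted p = 0.03, edgeR adjusted p = 0.364). Without ICH-Fabp4fl_fl mouse 1 the difference was 6.62 for Mmp13 and 6.04 for Mmp12, and without ICH-Fabp4CKO mouse 3 it was 3.76 for Mmp12. Adamts15 (1.59) was higher and Adamts5 (-0.93), Adamtsl5 (-0.60), Adamts20 (-0.60) and Mmp15 (-0.44) were lower in all 3 ICH-Fabp4CKO mice than in any ICH-Fabp4fl_fl mouse, with edgeR adjusted p of 0.353, 0.368, 0.456, 0.419 and 0.36. The log2 differences of Mmp2, Mmp3, Mmp8, Mmp9 and Mmp14 were 1.14, 1.09, 0.77, 1.03 and 1.11 with SEs of 0.53 to 1.04 and edgeR adjusted p of 0.445 to 0.729, and those of Adamts1 and Adamts4 were -0.07 and 0.08. The Mmp9 difference was 2.63 without ICH-Fabp4fl_fl mouse 1 and 0.39 without ICH-Fabp4CKO mouse 1. Without ICH-Fabp4CKO mouse 3 the Mmp2 difference was 0.52 and that of Mmp8 -0.09. Without ICH-Fabp4CKO mouse 2, Mmp10 passed the filter and was higher by 7.60 (edgeR adjusted p = 0.0468), the 1 call that leaving out a mouse gave here.

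Sums of cell type markers also stood apart between these groups, in both directions. The 6 endothelial markers summed to 967, 666 and 494 CPM in ICH-Fabp4fl_fl and 340, 275 and 299 in ICH-Fabp4CKO, and the 5 oligodendrocyte markers to 25829, 22624 and 17531 against 10535, 10883 and 6911. All 6 and all 5 had an unadjusted p under 0.05 in edgeR for the lower level in ICH-Fabp4CKO, beside 5.82% of all genes. None passed at an adjusted p under 0.05, and none was at 0 in either group. The astrocyte markers summed to 1089, 2224 and 2681 CPM against 2018, 3598 and 2490. The neutrophil markers went the other way, with 69.7 to 304 CPM in ICH-Fabp4CKO and 37.3 to 64.5 in ICH-Fabp4fl_fl. Of the 7 tested, 6 were higher at an unadjusted p under 0.05 in edgeR (median log2 difference 2.98), beside 6.36% of all genes. At an adjusted p under 0.05 there were 0. Retnlg and Ltf, with means of 0.356 and 0.432 CPM in ICH-Fabp4fl_fl, passed the filter through their level in ICH-Fabp4CKO, so the count is a description. Csf3r made up most of the ICH-Fabp4fl_fl sum (mean 36.1 CPM) and had means of 6.98 and 5.69 CPM in Sham-Fabp4fl_fl and Sham-Fabp4CKO. The part of these shifts in the TIMP, MMP and Adamtsl4 values was not tested.

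**Figure D5:**
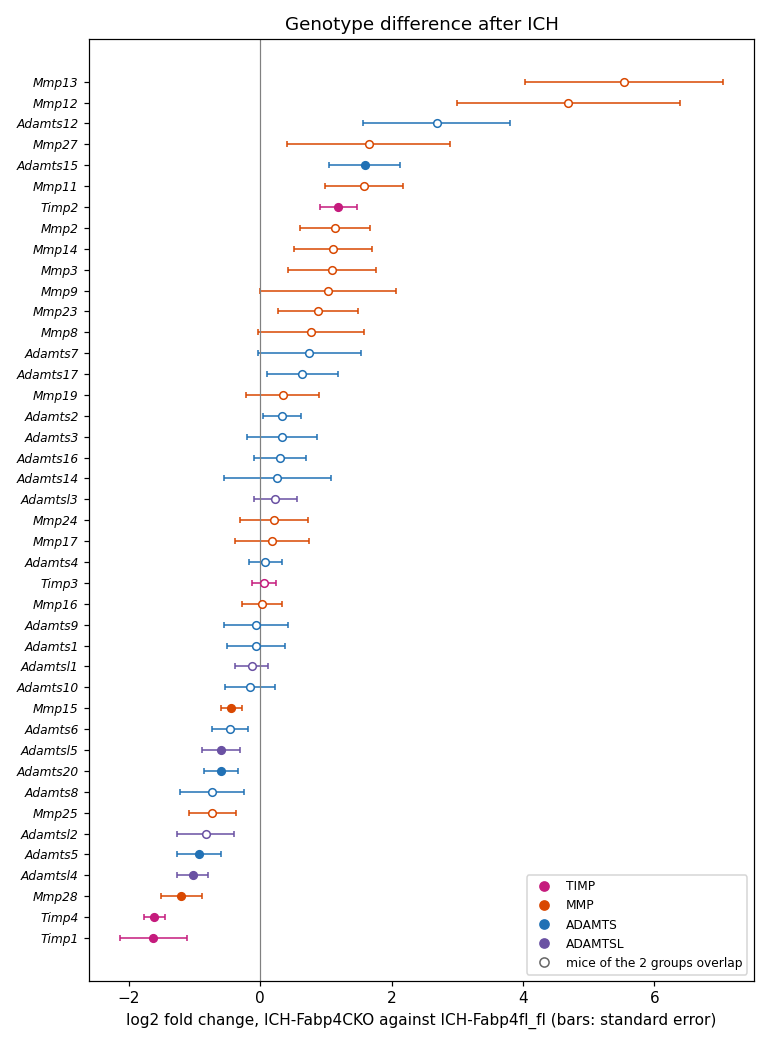
Log2 difference of ICH-Fabp4CKO against ICH-Fabp4fl_fl (x axis, bars are standard errors) for the 42 genes tested, by family. Filled points mark the 10 genes whose mice did not overlap between the groups, and none passed an adjusted p of 0.05 in edgeR. Timp1 and Timp4 lie at the low end, and Mmp13 and Mmp12, with wide errors and overlapping mice, at the high end.

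The interaction of ICH and genotype asks whether the ICH effect itself differed. Of the 44 genes tested none passed in edgeR in either direction, with 0.0133% of all genes higher and 0.00663% lower. At an unadjusted p under 0.05 there were 4 higher and 6 lower, with 5.57% and 4.37% in the background. Timp4 had an interaction of -1.62 (SE 0.26, unadjusted p = 7.32e-05, edgeR adjusted p = 0.0849), and DESeq2 called it with an adjusted p of 1.92e-05. Adamts15 (2.65, SE 0.73, edgeR adjusted p = 0.307) and Timp2 (1.01, SE 0.29, edgeR adjusted p = 0.312) were called by DESeq2 too, with adjusted p of 0.0299 and 0.0445. Mmp15 (-0.55, SE 0.18, edgeR adjusted p = 0.353) and Mmp2 (1.82, SE 0.61, edgeR adjusted p = 0.367) were next by p. The interactions of Mmp12, Mmp3, Mmp14, Mmp9, Timp1, Mmp8, Timp3 and Adamts1 were 4.56, 5.26, 1.25, 1.05, 0.89, 0.56, 0.28 and 0.13, that of Adamts5 was -1.09 and that of Adamts4 -0.03, with edgeR adjusted p from 0.444 to 0.987. For Mmp12, Mmp3, Timp1 and Mmp8 the SEs were 2.93, 2.44, 1.16 and 2.24, and sham counts near 0 leave the sizes of these interactions uncertain. Single mice moved several of these: the Mmp12 interaction was 1.79 and that of Mmp3 3.33 without Sham-Fabp4fl_fl mouse 1, and that of Timp1 was 2.60 without Sham-Fabp4CKO mouse 2. Without ICH-Fabp4fl_fl mouse 1 the interactions of Mmp12 and Mmp9 were 5.98 and 2.72, and without ICH-Fabp4CKO mouse 1 that of Mmp9 was 0.44. Without ICH-Fabp4CKO mouse 3 those of Mmp12, Mmp2 and Mmp8 were 3.63, 1.20 and -0.29. Without ICH-Fabp4CKO mouse 2, edgeR called Mmp2 (2.23), Mmp14 (1.69) and Timp2 (1.18) higher and Timp4 (-1.68) lower, with adjusted p of 0.0193, 0.0366, 0.0433 and 0.0249.

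In sham tissue none of the 31 genes tested differed between the genotypes in edgeR, with 0% of all genes higher and 0.111% lower in Sham-Fabp4CKO, and DESeq2 also called none. Timp1, Mmp3, Mmp8 and Mmp12 had too few counts in sham to be tested. At an unadjusted p under 0.05, 1 was higher and 5 lower, with 4.15% and 6.07% in the background. Mmp2 had the smallest p (log2 difference -0.72, SE 0.18, edgeR adjusted p = 0.392), with 2.36 to 3.03 CPM in Sham-Fabp4CKO and 4.2 to 4.73 in Sham-Fabp4fl_fl. Adamtsl1 (-0.43), Timp3 (-0.26), Adamts17 (-0.64) and Adamts15 (-1.09) followed, with edgeR adjusted p of 0.439, 0.48, 0.48 and 0.484. For Timp2, Adamts5, Adamts4, Timp4, Mmp9, Mmp14 and Adamts1 the log2 differences were 0.14, 0.11, 0.06, -0.03, -0.08, -0.19 and -0.25, with edgeR adjusted p from 0.493 to 0.951. The count rested on 1 mouse: without Sham-Fabp4fl_fl mouse 3, which had the highest choroid plexus sum (3242 CPM), edgeR called 3 genes higher (Adamts3, Adamtsl5 and Mmp17) and 5 lower (Adamts15, Adamts19, Adamtsl4, Mmp19 and Timp3) in Sham-Fabp4CKO. The 7 fibroblast and meningeal markers summed to 21.8 to 44.8 CPM in Sham-Fabp4fl_fl and 16.1 to 17.8 CPM in Sham-Fabp4CKO. Of the 6 tested, 4 were lower in Sham-Fabp4CKO at an unadjusted p under 0.05 in edgeR, none was higher and none was called. The part of the choroid plexus signal or of these markers in these values was not tested.

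Genes that act around these enzymes were read from 3 lists. Of 14 tested activators and other inhibitors of MMPs, 10 were higher with ICH in Fabp4fl_fl and 9 in Fabp4CKO and none lower, with 26.2% and 24.5% of all genes higher and 19.3% and 11.1% lower, and the medians were 1.83 and 2.86. Plau, the urokinase that generates plasmin and through it active MMPs, rose by 3.42 and 6.29 (edgeR adjusted p = 0.000737 and 0.00875). Lcn2, which binds and stabilizes gelatinase B, rose by 6.55 and 7.20 (edgeR adjusted p = 0.000801 and 0.0115), and Thbs1, a matricellular protein that binds MMPs, by 5.18 and 6.86 (edgeR adjusted p = 0.00124 and 0.00478). A2m, a broad protease trap, rose by 2.92 and 4.57 (edgeR adjusted p = 0.00116 and 0.00478), and Reck, a membrane inhibitor of MMPs, had values of 0.52 and -0.01 with no call.

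Of 11 lectican matrix genes, the substrates of several ADAMTS enzymes and their partners, 4 were higher and 1 lower with ICH in Fabp4fl_fl and 4 higher in Fabp4CKO, beside 26.2% higher and 19.3% lower, and 24.5% higher, among all genes. The 4 were the same in both: Cd44, a hyaluronan receptor, by 4.45 and 5.63, Has2, a hyaluronan synthase, by 3.96 and 4.17, Tnc, tenascin-C, by 3.28 and 4.42, and Vcan, versican, by 1.56 and 1.63 (edgeR adjusted p between 0.00035 and 0.0138). The link protein Hapln4 fell in Fabp4fl_fl (-1.68, edgeR adjusted p = 0.0304). Acan, Bcan and Ncan, the lecticans of perineuronal nets, did not pass, with values of -0.86, -0.97 and -0.13 in Fabp4fl_fl and -0.49, -0.50 and -0.16 in Fabp4CKO.

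Of 15 genes known to induce MMP transcription, 14 were tested in Fabp4fl_fl, where 10 were higher and 1 lower, and 15 in Fabp4CKO, where 10 were higher, beside the same 26.2%, 19.3% and 24.5% of all genes. The cytokines Il1b, Tnf and Osm rose by 4.75, 4.40 and 5.46 in Fabp4fl_fl and by 7.87, 7.39 and 5.57 in Fabp4CKO (edgeR adjusted p between 0.00411 and 0.0112). Their sham means were 0.223, 0.135 and 0.0638 CPM in Fabp4fl_fl and 0.0766, 0.0314 and 0.122 CPM in Fabp4CKO. Levels so near 0 leave the sizes of these changes, and their difference between the genotypes, uncertain. Among the AP-1 subunits Fosl1 rose by 4.83 and 6.94 (edgeR adjusted p = 0.00203 and 0.00873) from sham means likewise near 0, at 0.0654 and 0.0309 CPM. Jun rose by 0.91 and 1.42 (edgeR adjusted p = 0.0153 and 0.0128), Fosb fell in Fabp4fl_fl (-1.32, edgeR adjusted p = 0.0128), and Fos and Fosl2 did not pass in either. No gene of the 3 lists differed between the genotypes after ICH at an edgeR adjusted p under 0.05. At an unadjusted p under 0.05 in edgeR, Plau (2.42), Lrp1 (1.34), Tnr (0.73) and Fosb (1.43) were higher and Reck (-0.65), Bsg (-0.65) and Hapln2 (-0.79) lower in ICH-Fabp4CKO. At that threshold 6.36% of all genes were higher and 5.82% lower, so these few are a description.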

How the data were processed

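The authors aligned and quantified poly(A) RNA reads of 12 libraries and deposited 1 table of estimated counts per gene, without normalization. The submitters' processing notes name Bowtie2 2.2.8, HISAT2, StringTie 1.3.1 and DESeq2 with no role. The counting tool, build and annotation are not given in the sources used here, and an estimator can share reads between similar genes. Values not whole (7.36% to 8.69% per library) were rounded.

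Groups came from the sample labels. Tests used edgeR 4.0.16 in R 4.3.3 (TMM, filterByExpr with a minimum count of 10 and total of 15, quasi-likelihood) on the libraries compared, or all 12 for the interaction, with Benjamini-Hochberg adjustment over all genes and a threshold of 0.05, and were tested on simulated data. DESeq2 1.42.0 was an alternative. The members, lists, named genes (TIMPs, gelatinases, main collagenases, stromelysins and ADAMTS, the 8 largest called ICH changes, the 5 smallest p in each genotype contrast) and tests were chosen with earlier results of these data known, and other genes were added for completeness. Lengths are merged exons of GENCODE vM21, and start sites are RefSeq GRCm38.p6. Intervals and floors (3 counts) cover counting error only. The values of 1 gene of the list of activators and other inhibitors are not reported here.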

Additional observations from a re-analysis of the deposited data

Results flagged for a closer look

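Timp4 was flagged because the ICH effect had opposite directions in the genotypes: all 3 ICH-Fabp4fl_fl mice were above all 3 of their sham mice and all 3 ICH-Fabp4CKO mice were below theirs. The ICH effect in Fabp4CKO minus that in Fabp4fl_fl was -1.62 on the log2 scale. The interaction missed the threshold in edgeR's quasi-likelihood test over all genes (adjusted p = 0.0849) and passed it in DESeq2 (adjusted p = 1.92e-05).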

How the results depend on the processing

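The counts of genes called were recomputed with RLE factors, total counts, no filter, a mean count of at least 10, unrounded counts, DESeq2, a fit on all 12 libraries, a replicate block and each mouse left out. With DESeq2, 8 genes were lower with ICH in Fabp4fl_fl and 5 in Fabp4CKO. After ICH DESeq2 called 2 higher and 4 lower in CKO, and the fit on all 12 libraries 1 and 2. In the interaction DESeq2 called 2 higher and 1 lower. The cause was not tested.

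With a mouse left out, the genes higher with ICH ranged from 20 to 25 in Fabp4fl_fl and from 3 to 25 in Fabp4CKO, and those lower from 2 to 8 and from 0 to 5. Between genotypes the counts ranged from 0 to 1 higher, with 0 lower, after ICH, from 0 to 3 higher and 0 to 5 lower in sham, and from 0 to 3 higher and 0 to 1 lower in the interaction.

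No pairing by replicate number is stated in the sources used here, and so few mice cannot show whether there was one. Deviations from the group mean were correlated between same-numbered mice. The values were 0.197, 0.0244 and 0.127 for ICH against sham in Fabp4fl_fl and -0.00275, -0.00865 and -0.00491 in Fabp4CKO. Between genotypes they were 0.311, -0.168 and -0.576 after ICH and 0.0581, -0.176 and -0.0886 in sham. The main tests therefore used no pairing. With the number as a replicate block 24 genes were higher and 6 lower in Fabp4fl_fl, 15 higher and 2 lower in Fabp4CKO, and 0 in each genotype comparison.

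Turns of direction were recorded for the named genes, and none of their values that turned was called. They were small except for Mmp8, at 0.77 between genotypes after ICH and 0.56 in the interaction. Other members turned too with a mouse left out. Adamts9 (-0.45 to 0.41) and Mmp17 (-0.47 to 0.58) did so between genotypes after ICH, and Mmp23 (-1.85 to 0.49) in the interaction. The Adamts4 interaction was 0.02 with RLE factors, 0.02 with DESeq2 and 0.01 with no filter. With a mouse left out, Adamts4 ranged from -0.10 to 0.30 with ICH in Fabp4fl_fl, -0.07 to 0.25 in Fabp4CKO, -0.14 to 0.27 between genotypes after ICH, -0.10 to 0.22 in sham and -0.23 to 0.17 in the interaction. Timp3 ranged from -0.13 to 0.05 with ICH in Fabp4CKO and -0.04 to 0.15 between genotypes after ICH. Adamts1 ranged from -0.36 to 0.33 and Mmp8 from -0.09 to 1.29 between genotypes after ICH, and from -0.13 to 0.58 and -0.29 to 1.08 in the interaction. In sham Adamts5 ranged from -0.11 to 0.29, Mmp9 from -0.32 to 0.19 and Timp4 from -0.20 to 0.12. Total counts in place of TMM moved the median of all genes by under 0.1.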
